A study of Mus musculus with 5 samples.

Results

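DNA replication genes are the 35 genes described here, a set of helicase, licensing, clamp, polymerase, nucleotide supply and G1/S genes that was fixed by name. Each was read from the deposited table through the probe set that the platform annotation assigns to that gene alone and that has the highest mean over the 5 arrays. All 35 had such a probe set, and all 35 lay above the filter on dim probe sets (a mean log2 intensity above 5.77), among 12813 genes that did. The mean level of the members ran from 7.21 (Tyms) to 13.76 (Mcm7) on the log2 scale, and the lowest single reading was 6.59. A log2 difference of 1 is a doubling of intensity.

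Cells copy their DNA in a fixed order. In G1 the origin recognition complex, with Cdc6 and Cdt1, loads the ring-shaped helicase made of Mcm2 to Mcm7 onto origins, and at the start of S phase Cdc45 and the GINS complex join it and switch it on. Primase and DNA polymerase alpha then lay down primers, the clamp loader places the PCNA ring, and polymerases delta and epsilon extend the strands, while E2F factors and cyclin E control when many of these genes are transcribed. Long-term haematopoietic stem cells (LT-HSCs), the cells at the top of the blood lineage, are mostly quiescent, and these genes are widely used to follow their entry into the cycle.

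The study asked what loss of LRF, the zinc finger repressor encoded by Zbtb7a, does to the LT-HSC transcriptome. LT-HSCs of C57BL/6 mice aged 4 weeks were sorted as LSK cells negative for IL7Ra, Flt3 and CD48 and positive for CD150. The 2 control arrays came from Zbtb7a Flox/+ Mx1-Cre+ mice, in which 1 allele can be deleted, and the 3 knockout arrays from Zbtb7a Flox/Flox Mx1-Cre+ mice, in which both can. Every animal carried Cre under the interferon-responsive Mx1 promoter and received 2 doses of the RNA analogue pIpC (250 µg each), with cells taken on day 9 counted from the earlier dose. So the controls also had Cre activity, pIpC and a floxed allele, and the comparison cannot show effects of losing a single allele. The Mx1 promoter responds to interferon in many cell types and is not limited to stem cells. The label of knockout replicate 3 carries 2 animal numbers and each other label 1, so that array may hold pooled cells. Nothing else says how the arrays of a group were prepared apart, so the p-values measure the spread between these arrays. In RNA from sorted cells, fewer cells in cycle and less RNA per cell cannot be told apart.

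Knockout replicate 2 stood apart over the whole array. Over 45037 probe sets, which do not vary independently, it correlated with the remaining arrays at 0.9446 to 0.9699, while pairs without it reached 0.9774 to 0.9898. For Actb, the 3' minus 5' signal on the log2 scale, a measure of RNA length, was 3.85 in that array and 4.90 to 5.21 elsewhere. For Gapdh it was 4.67 in that array and 5.06 to 5.17 elsewhere. A smaller value means more 5' signal relative to 3' signal. Of the gate's own markers, Kit read 9.599 in that array against 11.12 to 11.82 in the others, and Slamf1, which encodes CD150, 6.60 against 8.06 to 9.16; of the markers the sort removes, Cd48 read 9.97 against 7.87 to 8.59, Flt3 lay within the range of the other arrays (8.56, against 8.25 to 9.50), and Il7r was above both controls in all 3 knockout arrays (9.35, 10.50 and 7.44, against 6.21 and 7.30). Ly6a, which encodes Sca-1, was listed too but had no probe set above the filter that is assigned to it alone, so it has no value here. Differences without this array are therefore given for most of the members described below.

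No replication gene passed the test between knockout and control. In the limma fit over 27022 probe sets, 0 of the 35 members had an adjusted p under 0.05 (adjusted p = 1 for each), as did 0.0% of all probe sets tested. At an unadjusted p under 0.05 the members numbered 0 as well, against 1.13% of all probe sets. With 1 probe set per gene the shares were 0.695% of all genes in the lower and 0.265% in the higher direction. As a description, 33 of the 35 members (94.3%) had a lower mean in knockout than in control, against 56.2% of all genes; after cyclic loess, another scaling of the arrays, it was 29. The median log2 difference of the members, knockout minus control, was -0.19 (quartiles -0.31 and -0.0765), or 1.14-fold lower, against a median of -0.0305 for all genes. The standard errors (SE) of the members' own differences ran from 0.13 to 0.55. The per-array median of the members varied within groups with a pooled SD of 0.26, which is larger than the difference. That SD describes single arrays, while the difference comes from means of 2 and 3 arrays, so these measures are not alike. The plot of log2 differences shows these values gene by gene.

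**Figure D1:**
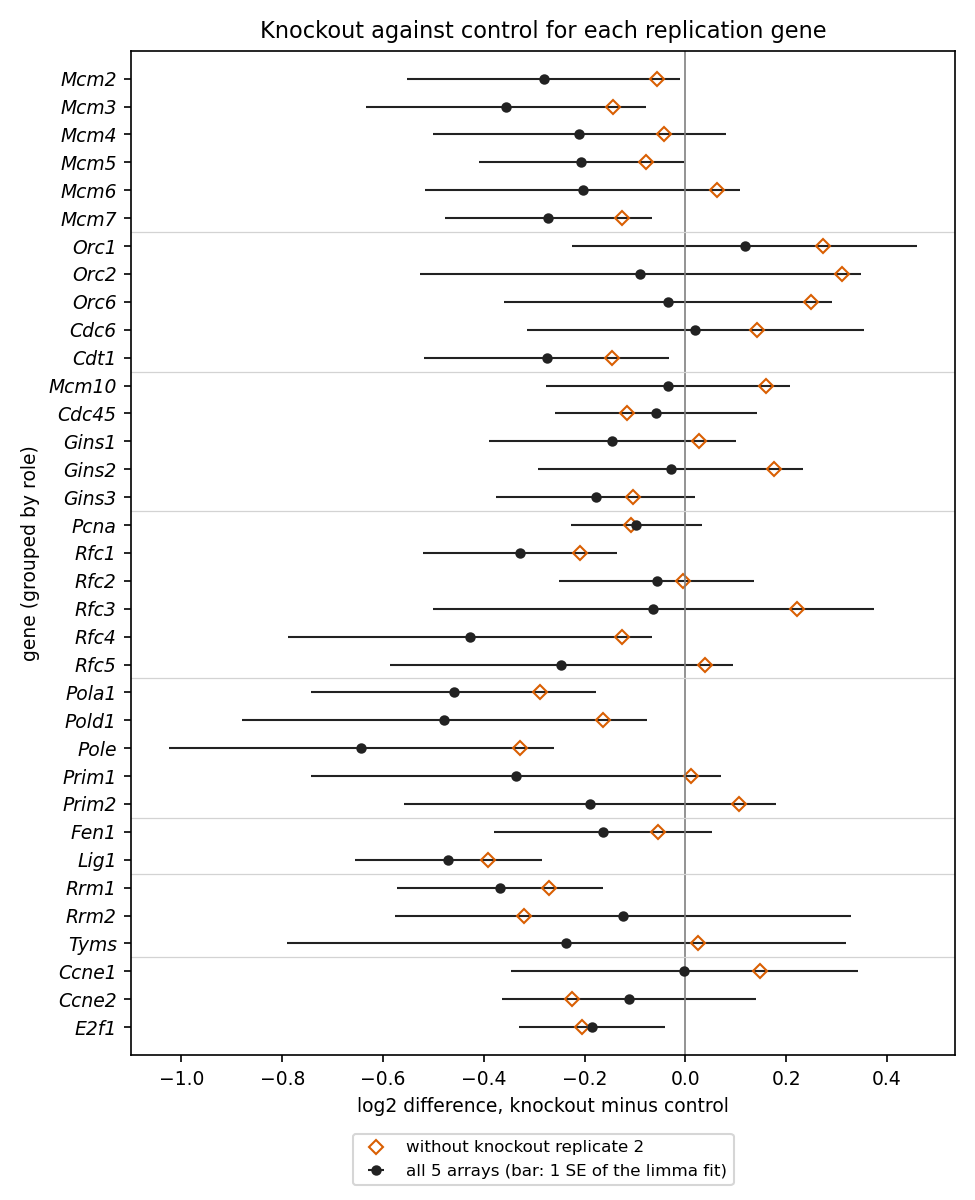
Log2 difference of knockout (3 arrays) minus control (2 arrays) on the x axis for each of the 35 replication genes, grouped by role on the y axis. Filled points with bars are the difference over all 5 arrays with 1 SE of the limma fit, and open diamonds are the difference without knockout replicate 2. The largest difference is that of Pole (-0.64), and most diamonds lie closer to 0 than their points.

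In the deposited values the lower mean came mainly from a single array. Relative to the control mean, the median member read -0.21 in knockout replicate 1, -0.56 in knockout replicate 2 and 0.0724 in knockout replicate 3. Knockout replicate 2 was the lowest of the 5 arrays for 26 of the 35 members (74.3%), against 40.5% of all genes, and the highest for 0 members, against 26.0% of all genes. It lay below both controls for 28 members (80.0%, against 44.7% of all genes) and above both for 0 (against 29.6%). Without that array the median difference of the members was -0.0568, against 0.0031 for all genes, and 21 of 35 members were negative, against 48.9% of all genes. Knockout replicate 1 lay below both controls for 23 members (65.7%), against 25.9% of all genes. Knockout replicate 3 lay below both controls for 4 members (11.4%, against 25.9% of all genes) and above both for 11 (31.4%, against 27.0%); it was the highest array for 11 (31.4%, against 19.6%).

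The size of the shift in knockout replicate 2 depended on the scaling of the arrays. With cyclic loess, which fits the arrays to each other along the intensity range, knockout replicate 2 was the lowest array for 16 of 35 members (45.7%), against 33.4% of all genes, and the median member read -0.26 there. It lay below both controls for 23 members, against 38.8% of all genes. Knockout replicate 1 was below both controls for 23 members (65.7%) under this scaling too, against 33.3% of all genes, with a median of -0.25. The median difference over all 5 arrays was then -0.15, and -0.12 with 25 negative members when knockout replicate 2 was left out, so the median under this scaling rested less on that array. Of the 33 negative members, Orc6, Mcm10, Gins2 and Ccne1 turned positive. After centring each array on its median, 26 members were lowest in knockout replicate 2, against 39.9% of all genes, and 28 lay below both controls there, against 45.0%.

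**Figure D2:**
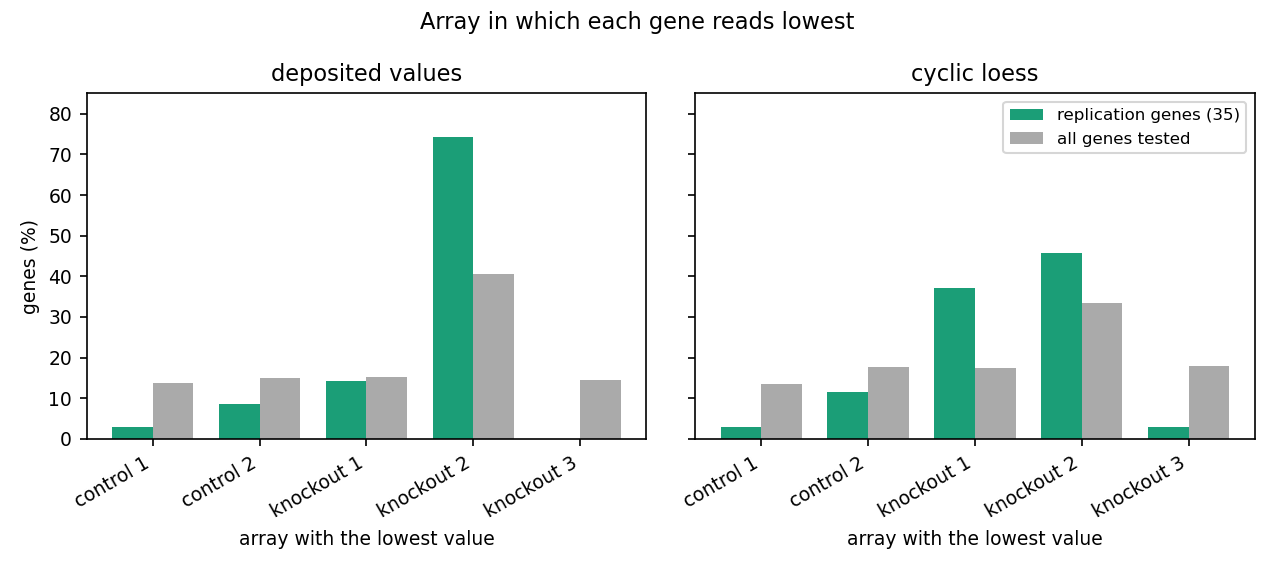
Share of genes in percent (y axis) for which each of the 5 arrays (x axis) gives the lowest value, for the 35 replication genes (green) and all 12813 genes tested (grey), in the deposited values on the left and after cyclic loess on the right. The bar of knockout replicate 2 for replication genes stands at 74.3% on the left and 45.7% on the right, against 40.5% and 33.4% of all genes.

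Other genes moved in knockout replicate 2 as well. Of 14 measured stem cell genes, 13 had their lowest value in that array, and their list median relative to the controls was -2.16 there, against -0.18 and 0.011 in knockout replicates 1 and 3. All 8 measured immediate early genes, Fos and Jun among them, were highest in it, with a median 3.87 above the control mean. So were 7 of 8 genes of granulocyte-monocyte progenitors (median 1.28) and 4 of 5 mast cell genes (median 2.63). Among 10 macrophage genes 6 were lowest in it, and their list median was also low in knockout replicate 1 (-1.999) and knockout replicate 3 (-0.79). Erythroid genes (8 measured) set the controls apart. Their list median was 0.69 and -0.69 in control replicates 1 and 2, and 0.23, 0.47 and 0.51 in knockout replicates 1, 2 and 3. The part of these cell types and of RNA length in the values of the replication genes was not tested.

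Groups did not overlap for 4 members, with every knockout array below either control: Lig1, Rfc1, Pcna and E2f1. This is 11.4% of the 35, against 4.5% of all genes in that direction; in the other direction it was 0 members, against 2.68% of all genes. The same 4 members were separated without knockout replicate 2 (11.4%, against 13.5% of all genes for 2 arrays against 2). In that smaller set 3 members, Orc2, Orc6 and Mcm10, were higher in both knockout arrays than in both controls (8.57%, against 13.9%). None of these 7 members passed the limma test (adjusted p = 1). Separation was read from the brightest probe set. The groups overlapped in the other probe sets of Rfc1 and E2f1 above the filter, while Lig1 and Pcna had 1 probe set each.

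Many replication genes are known E2F targets, so the 250 bases before and 50 after each annotated start site (RefSeq, GRCm38.p6) were searched on both strands for the E2F consensus in its forms TTTCCCGC, TTTCGCGC, TTTGCCGC and TTTGGCGC. A sequence was at hand for 28 of the 35 members. At least 1 match lay in 12 of them (42.9%), against 4.51% of 10368 tested genes with a sequence and 2.6% of all 27025 genes in the table. The 12 were Mcm3, Mcm5, Mcm6, Mcm7, Orc1, Cdc6, Cdt1, Gins3, Rfc3, Pola1, Pold1 and Lig1. The letters CCAAT, which overlap none of these forms, were found in 18 of the 28 (64.3%), against 42.3% of tested genes. The 250 bases upstream of 5 members are shown 5′ to 3′ because they set members that were lowest in knockout replicate 2 (Mcm6, Mcm5 and Pola1) beside members that were not (Orc1 and Rrm2). Capitals mark the E2F consensus. Mcm6 (chr1:128359706-128359955, minus strand) holds 3 matches that start at -110, -106 and -47 from the start site, the first pair overlapping. Mcm5 (chr8:75109259-75109508, plus strand) holds an overlapping pair at -153 and -149, Pola1 (chrX:93632156-93632405, minus strand) a match at -138 and Orc1 (chr4:108579204-108579453, plus strand) a match at -27. Rrm2 (chr12:24708004-24708253, plus strand) holds 0.
Mcm6: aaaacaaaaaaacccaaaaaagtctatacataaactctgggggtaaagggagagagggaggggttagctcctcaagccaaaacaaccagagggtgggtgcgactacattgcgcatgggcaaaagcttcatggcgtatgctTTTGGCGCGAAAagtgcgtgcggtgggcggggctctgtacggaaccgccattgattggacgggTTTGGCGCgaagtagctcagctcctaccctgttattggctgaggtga
Mcm5: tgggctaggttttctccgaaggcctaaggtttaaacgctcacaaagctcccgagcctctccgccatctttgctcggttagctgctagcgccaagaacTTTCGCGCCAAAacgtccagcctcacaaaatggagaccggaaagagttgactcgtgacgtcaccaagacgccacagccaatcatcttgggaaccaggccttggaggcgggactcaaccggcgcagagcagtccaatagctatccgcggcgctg
Pola1: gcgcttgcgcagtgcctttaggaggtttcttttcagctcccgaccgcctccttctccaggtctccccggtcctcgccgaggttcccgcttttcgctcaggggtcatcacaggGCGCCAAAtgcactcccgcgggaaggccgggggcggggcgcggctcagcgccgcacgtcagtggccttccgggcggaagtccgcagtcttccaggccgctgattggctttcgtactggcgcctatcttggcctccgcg
Orc1: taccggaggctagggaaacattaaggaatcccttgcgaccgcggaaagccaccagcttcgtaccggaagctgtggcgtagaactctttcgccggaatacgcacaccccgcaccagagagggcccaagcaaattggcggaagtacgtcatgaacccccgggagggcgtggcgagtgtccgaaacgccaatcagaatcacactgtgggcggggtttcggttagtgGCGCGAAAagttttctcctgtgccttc
Rrm2: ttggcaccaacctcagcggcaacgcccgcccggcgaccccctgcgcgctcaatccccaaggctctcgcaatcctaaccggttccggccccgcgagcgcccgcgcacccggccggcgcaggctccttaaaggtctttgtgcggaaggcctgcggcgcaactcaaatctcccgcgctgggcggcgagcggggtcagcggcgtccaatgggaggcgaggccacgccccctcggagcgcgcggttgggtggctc

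A match in these letters is a description of the sequence and not evidence of a bound site. Of the 12 members with a match, 10 were lowest in knockout replicate 2, with a median log2 difference of -0.24 (range -0.48 to 0.12). Of the 16 members without a match, 11 were, with a median of -0.17 (range -0.43 to -0.0026). The latter range lay within the former.

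In the deposited values all 6 subunits of the helicase core were lowest in knockout replicate 2. Their differences were -0.20 to -0.36 over all arrays, with a median of -0.24. After cyclic loess 3 of the 6 were lowest in knockout replicate 2 (Mcm2, Mcm3 and Mcm6) and 3 in knockout replicate 1. Mcm3, a subunit of the ring, read 11.51 and 11.77 in controls and 11.35, 10.86 and 11.64 in knockout replicates 1, 2 and 3. Its knockout replicate 3 lay between the controls, and the difference was -0.36 (SE 0.28; -0.14 without knockout replicate 2). Mcm7, another subunit, read 13.98 and 13.87 in controls and 13.73, 13.36 and 13.87 in knockouts. The highest knockout value and the lower control of Mcm7 were equal to 2 decimals, and the difference was -0.27 (SE 0.20; -0.13 without knockout replicate 2). Mcm6, with 12.93 and 12.895 in controls, read 12.85, 12.17 and 13.10 in knockouts, so that a difference of -0.20 (SE 0.31) became 0.0627 without knockout replicate 2. Without that array the differences of Mcm2, Mcm4 and Mcm5 were -0.0568, -0.0416 and -0.0779. Mcm3, with 5 probe sets, and Mcm7, with 4, had knockout replicate 2 lowest in each of them.

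Licensing genes had differences of both signs. Orc1, the subunit of the origin recognition complex whose level cycles, read 8.90 and 8.31 in controls and 8.52, 8.41 and 9.23 in knockouts. Its groups overlapped, the highest value was that of knockout replicate 3, and the difference was 0.12 (SE 0.34; 0.27 without knockout replicate 2); its other probe set differed by -0.11. Cdc6, the ATPase that helps load the helicase, was the other member with a positive difference (0.0199, SE 0.33; 0.14 without knockout replicate 2), and its controls, at 11.49 and 10.59, enclosed all 3 knockout values. Cdt1, the loading factor that geminin inhibits, read 13.43 and 13.04 in controls and 12.91, 12.70 and 13.27 in knockouts, a difference of -0.28 (SE 0.24; -0.15 without knockout replicate 2). Only knockout replicate 3 of Cdt1 reached the range of the controls. The other origin recognition subunits measured, Orc2 and Orc6, read 9.09 and 9.86 in knockout replicate 2 but lay above both controls in the other knockout arrays. Their differences of -0.0895 (SE 0.44) and -0.0346 (SE 0.32) were 0.31 and 0.25 without that array, and that of Orc6 was 0.0088 after cyclic loess. The other probe sets of Orc2 differed by 0.41 and 0.049, so its direction was not settled.

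Genes that turn the helicase on differed little. The differences ran from -0.18 to -0.0293. Gins3, a subunit of GINS, read 8.32 and 8.59 in controls and 8.18, 8.13 and 8.52 in knockouts, with overlapping groups and a difference of -0.18 (SE 0.20; -0.10 without knockout replicate 2). Mcm10, which helps start the loaded helicase, read 10.67 and 10.60 in controls and 10.73, 10.21 and 10.86 in knockouts. Knockout replicate 2 lay below both controls and the other knockouts above both, and the difference of -0.0348 (SE 0.24) was 0.16 without knockout replicate 2 and 0.0098 after cyclic loess. Gins1 and Gins2 were also lowest in that array (differences -0.15 and -0.0293, the latter 0.0045 after cyclic loess). Cdc45, the helicase cofactor, was not: it read 9.26 there, between its controls of 9.35 and 9.05, and was lowest in knockout replicate 1 at 8.895.

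The clamp and its loader held the member with the smallest SE, Pcna. Pcna, the sliding clamp, read 12.77 and 12.75 in controls and 12.62, 12.68 and 12.68 in knockouts. The groups did not overlap, but the difference was -0.0974 (SE 0.13), or 1.07-fold. Rfc1, the large subunit of the loader, read 11.38 and 11.51 in controls and 11.13, 10.88 and 11.34 in knockouts, without overlap and with a difference of -0.33 (SE 0.19, unadjusted p = 0.152; -0.21 without knockout replicate 2). Its other probe sets differed by -0.16 and 0.16. Rfc4, a small subunit, read 11.16 and 10.88 in controls and 10.73, 9.99 and 11.06 in knockouts, a difference of -0.43 (SE 0.36) that was -0.13 without knockout replicate 2. Rfc3 and Rfc5, also small subunits, read -0.63 and -0.82 relative to the control mean in that array, with overall differences of -0.0635 and -0.25 that were 0.22 and 0.0396 without it. Rfc2 (-0.0567) was lowest in control replicate 1 by its brightest probe set. Its 2 other probe sets were lowest in knockout replicate 2 and differed by -0.35 and -0.28. Control replicate 1 minus control replicate 2 was -0.84 for Rfc3, a wider gap than that between its groups.

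Polymerase and primase genes had the lowest median difference of any role over the 5 arrays, at -0.46 (-0.16 without knockout replicate 2, where 3 roles were lower: nucleotide supply at -0.27, Okazaki fragment maturation at -0.22 and G1/S regulators at -0.21). Their list median read -0.44, -1.03 and 0.12 relative to the control mean in knockout replicates 1, 2 and 3, and all 5 lay below both controls in knockout replicate 1 and were lowest in knockout replicate 2. Cyclic loess left both of these counts at 5, with a list median of -0.42. Pole, the catalytic subunit of the leading strand polymerase epsilon, read 10.62 and 10.95 in controls and 10.26, 9.51 and 10.65 in knockouts. Only knockout replicate 3 reached the controls, and the difference of -0.64 (SE 0.38, unadjusted p = 0.157), a 1.56-fold lower level, was the largest of any member; it was -0.33 without knockout replicate 2. Pold1, the catalytic subunit of polymerase delta, read 11.69 and 12.06 in controls and 11.43, 10.77 and 11.99 in knockouts, a difference of -0.48 (SE 0.40; -0.16 without knockout replicate 2). Knockout replicate 3 of Pold1 lay between the controls, and its other probe set differed by -0.38. Pola1, the catalytic subunit of polymerase alpha, differed by -0.46 (SE 0.28; -0.29 without knockout replicate 2). The primase subunits Prim1 and Prim2 differed by -0.34 and -0.19, and by 0.011 and 0.11 without that array.

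Lig1, the ligase that seals Okazaki fragments, had the smallest unadjusted p of the 35 members (0.055; limma adjusted p = 1). It read 11.30 and 11.34 in controls and 10.75, 10.69 and 11.11 in knockouts. The groups did not overlap, the controls were close to each other, and the difference was -0.47 (SE 0.19), or 1.39-fold lower. Without knockout replicate 2 the difference was -0.39, so this member rested less on that array than most. Fen1, the flap nuclease that trims the same fragments, read 13.49 and 13.06 in controls and 13.17, 12.89 and 13.27 in knockouts. Its groups overlapped, with a difference of -0.16 (SE 0.22; -0.0542 without knockout replicate 2).

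Of the nucleotide supply genes, the ribonucleotide reductase subunits did not follow each other in the deposited values of their brightest probe sets. After cyclic loess both of them, and Tyms as well, were lowest in knockout replicate 1. Rrm1, the large subunit, read 11.66 and 11.35 in controls and 11.09, 10.94 and 11.37 in knockouts. Only knockout replicate 3 reached the lower control, and the difference was -0.37 (SE 0.20, unadjusted p = 0.135). The other Rrm1 probe set above the filter was lowest in knockout replicate 1 instead. It read 9.02 and 9.17 in controls and 8.84, 9.14 and 8.97 in knockouts. Rrm2, the small subunit made in S phase, read 13.53 and 12.38 in controls and 12.35, 13.23 and 12.92 in knockouts. The controls enclosed all but knockout replicate 1, they were 1.15 apart, and knockout replicate 2 was the higher end of the knockouts; the difference was -0.12 (SE 0.45), and -0.32 without knockout replicate 2. The other probe sets of Rrm2 differed by 0.12 and -0.50. Tyms, thymidylate synthase, read 7.14 and 7.57 in controls and 6.62, 6.59 and 8.13 in knockouts, with knockout replicate 3 the highest of all arrays and a difference of -0.24 (SE 0.55; 0.0255 without knockout replicate 2).

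By its brightest probe set, none of the G1/S regulators was lowest in knockout replicate 2, and all 3 were highest in control replicate 1. E2f1, the transcription factor of the G1/S switch, read 8.38 and 8.16 in controls and 8.05, 8.12 and 8.08 in knockouts. The groups did not overlap, although the gap from the lower control to the highest knockout was small against the 0.22 between the controls. The difference was -0.19 (SE 0.14, limma unadjusted p = 0.259). In the other E2f1 probe set above the filter the groups overlapped. It read 7.93 and 7.77 in controls and 7.57, 7.81 and 7.85 in knockouts, a difference of -0.11. Ccne1, which encodes cyclin E1, read 11.67 and 10.79 in controls and 11.22, 10.93 and 11.53 in knockouts, all within the controls, with a difference of -0.0026 (SE 0.34) that was 0.15 without knockout replicate 2 and 0.0462 after cyclic loess. The other probe set of Ccne1 differed by -0.11 and was lowest in knockout replicate 2, at 8.27 against 8.41 in control replicate 2. Ccne2, cyclin E2, differed by -0.11 (SE 0.25) and was lowest in knockout replicate 1.

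**Figure D3:**
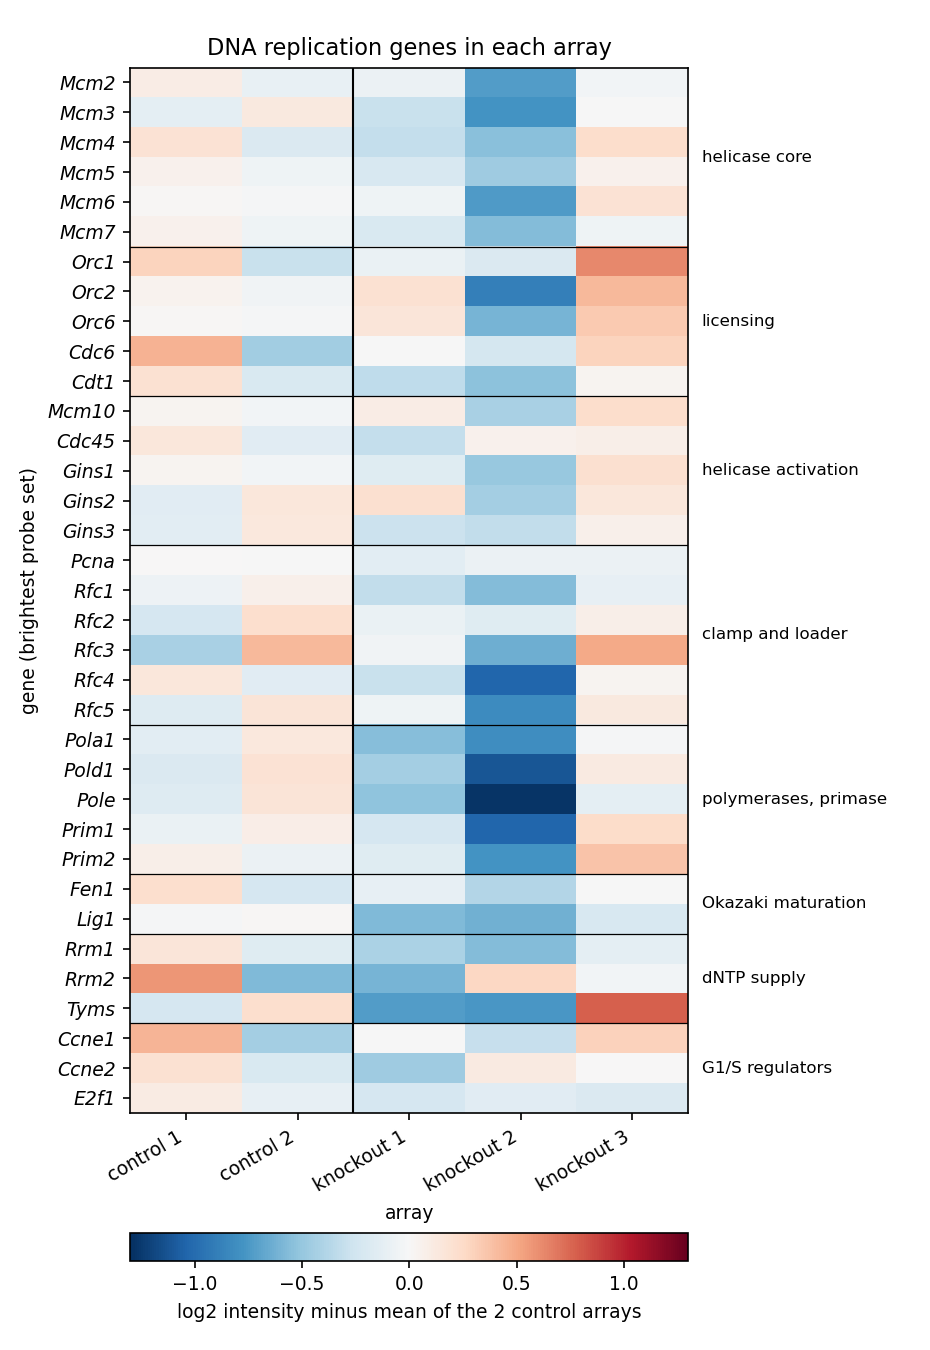
Log2 intensity of each of the 35 replication genes (rows, grouped by role) in each of the 5 arrays (columns) minus the mean of the 2 control arrays, red for higher and blue for lower. The column of knockout replicate 2 is the darkest blue, deepest for Pole (-1.27) and Pold1 (-1.11), while Rrm2, Ccne2 and Cdc45 read above the control mean there.

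The 2 controls differed from each other by more than the groups did at the median. The median absolute difference between control replicates 1 and 2 was 0.29 over the members, against 0.19 for the groups, and 0.30 against 0.14 for all genes. These measures are not alike, because single arrays vary more than means of 2 and 3 arrays. A wider gap between the controls is therefore expected even where the groups do not differ. For 18 of 35 members (51.4%) the controls lay further apart than the group means, against 71.8% of all genes. Control replicate 1 was the highest of the 5 arrays for 14 members, against 12.6% of all genes, among them Cdc6, Ccne1, Ccne2, E2f1, Rrm1 and Rrm2.

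Probe sets of a gene mostly had the same sign. The 35 members had 81 single-gene probe sets, 72 above the filter. Of the 27 members with more than 1 above it, 20 had the same sign in each, and Orc1, Orc2, Cdc45, Gins1, Gins2, Rfc1 and Rrm2 had both signs. Knockout replicate 2 was lowest in 25 of the 37 further probe sets. The probe sets chosen for Mcm4, Mcm5, Mcm6, Pold1, Fen1, Rrm2 and Ccne1 have names with _x_at, whose probes can also bind similar transcripts.

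The other replication genes, a further list of 44 with 42 measured, had 30 negative and 12 positive differences with a median of -0.12, and 0 passed the limma test (0 also at an unadjusted p under 0.05, which 0.695% of all genes passed in the lower and 0.265% in the higher direction). Knockout replicate 2 was the lowest array for 29 of them (69.0%), with a median of -0.43 relative to the control mean, and without it the median difference was 0.0242. Groups did not overlap for 4, all lower in knockout (9.52%, against 4.5% of all genes): Tk1, Topbp1, Rpa1 and Rnaseh2b. Tk1, a thymidine kinase, differed by -0.36 (SE 0.19), Clspn, the checkpoint adaptor claspin, by -0.37 (SE 0.20) and Topbp1, which helps assemble the active helicase, by -0.45 (SE 0.28; -0.22 without knockout replicate 2).

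In the E2F and RB family, 7 of 12 differences were negative and 0 passed. Rbl1, which encodes the pocket protein p107, read 11.63 and 11.84 in controls and 10.52, 11.12 and 10.90 in knockouts. Its groups did not overlap, with a difference of -0.89 (SE 0.23, unadjusted p = 0.0134, limma adjusted p = 1) and of -1.02 without knockout replicate 2. The repressor gene E2f7 also had no overlap and differed by -0.58 (SE 0.32), and the activator gene E2f3 differed by -0.58 (SE 0.49; -0.17 without knockout replicate 2). A list of 8 genes held D-type cyclins and CDKs together with Ccna2 and Cdc25a, and 6 of them were negative. Ccnd1, cyclin D1, read 8.28 and 8.54 in controls and 7.66, 7.74 and 7.21 in knockouts. Its groups did not overlap, with a difference of -0.88 (SE 0.23, unadjusted p = 0.0134, limma adjusted p = 1). Ccna2 differed by -0.39 (SE 0.29) and Ccnd2 by -0.65 (SE 0.62; -0.0900 without knockout replicate 2).

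CDK inhibitors, of which 5 of 7 passed the filter, had 3 negative and 2 positive differences. Cdkn1a, the p53 target p21, read 7.62 and 7.54 in controls and 7.79, 8.86 and 8.04 in knockouts, above both controls in each, with a difference of 0.65 (SE 0.36; 0.34 without knockout replicate 2). Cdkn1c, the stem cell inhibitor p57, differed by -1.21 (SE 0.75; -0.57 without knockout replicate 2) and read 6.14 in knockout replicate 2 against 8.05 to 9.19 elsewhere. Cdkn1b, p27, differed by 0.18 (SE 0.35), and by -0.0726 without knockout replicate 2.

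In the deposited values mitosis genes had a different order of arrays from the replication genes. Of 20 measured, 16 were negative with a median of -0.22, and 0 passed the limma test (0 at an unadjusted p under 0.05). Knockout replicate 1 was lowest for 14 (70.0%, against 15.2% of all genes and 14.3% of the replication genes) and knockout replicate 2 for 3 (15.0%). Set against the control mean, the median mitosis gene read 0.26 and -0.26 in control replicates 1 and 2, and -0.51, 0.0089 and -0.0902 in knockout replicates 1, 2 and 3. Mki67, the proliferation marker, was among the 14. The members with the smallest p were Bub1b (-0.26, SE 0.17), a spindle checkpoint kinase, Cdk1 (-0.23, SE 0.17), the mitotic kinase, and Prc1 (-0.35, SE 0.33), a spindle midzone protein. After cyclic loess, 13 of the 35 replication genes (37.1%) were lowest in knockout replicate 1 and 16 (45.7%) in knockout replicate 2. The shares of all genes were 17.4% and 33.4%. The mitosis genes were not ranked by array under that scaling. Whether the replication and mitosis lists differ in knockout replicate 2 was not tested, since it is a single array.

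**Figure D4:**
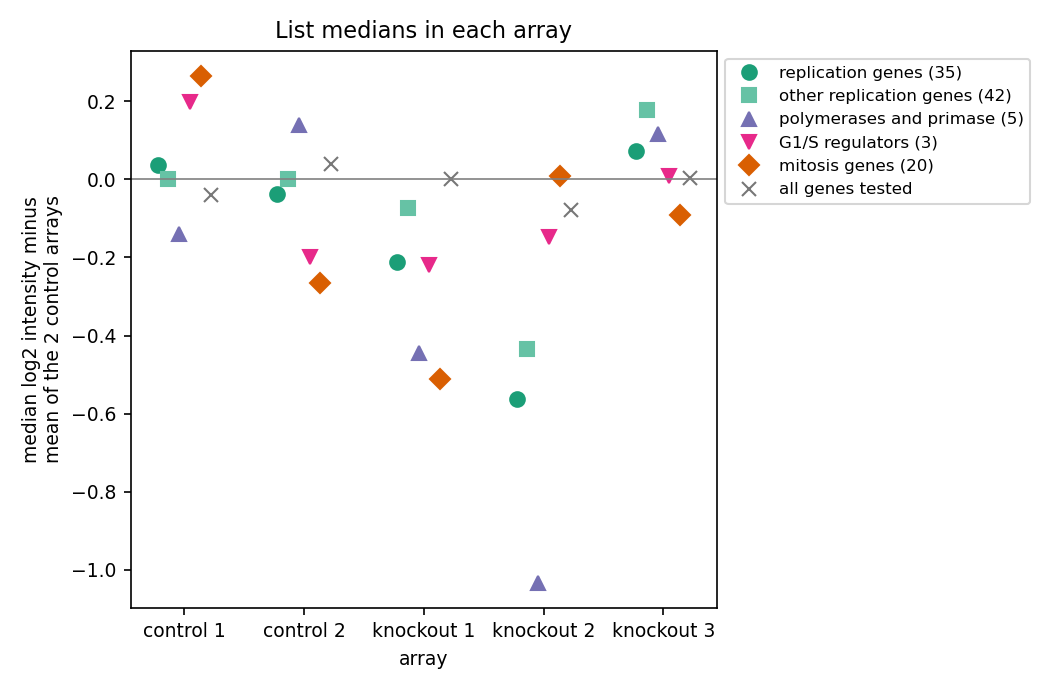
Median log2 intensity minus the mean of the 2 control arrays (y axis) in each of the 5 arrays (x axis) for the 35 replication genes, 42 other replication genes, 5 polymerase and primase genes, 3 G1/S regulators, 20 mitosis genes and all genes tested. Values are as deposited. In knockout replicate 2 the replication lists lie at -0.56 and -0.43 and the mitosis genes at 0.0089. In knockout replicate 1 the mitosis genes are the lowest at -0.51.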

How the data were processed

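RNA of sorted LT-HSCs from 2 control and 3 knockout samples was labelled by repeated in vitro transcription and hybridised to Affymetrix mouse arrays, per the labels' protocols. The authors deposited RMA values on the log2 scale for every probe set. The submitters' processing notes name Affymetrix Expression Console, without a version. RMA forces all arrays to a shared distribution, which removes a shift common to most transcripts and compresses the brightest values. Of 45101 rows, 64 control probe sets were left out, then the 40% of the rest with the lowest mean (below 5.77), leaving 27022. Group differences, knockout minus control, were fitted with lmFit and eBayes of limma 3.58.1 (R 4.3.3; two-sided, Benjamini-Hochberg over all probe sets tested, adjusted p under 0.05). The fit was tested on simulated data. Depth does not apply to arrays; their number limits the precision.

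Gene names came from the platform annotation (34945 probe sets with 1 symbol, 932 with several, 9160 unnamed); each gene was represented by its brightest probe set that carries no second symbol. The members and lists were chosen with earlier results of these data known. Values in every array are given for members whose groups do not overlap and, in each role, for the member with the largest difference in each direction and the brightest member; those of Mcm6, Tyms, Cdc6 and Cdc45 were added after their values were seen. In the other lists up to 3 genes with the smallest p are named. Alternatives changed the eBayes prior, the filter, the scaling (cyclic loess, median centring) or the choice of probe set (averaging per gene), added array weights or a replicate block, or left out each array in turn. The count of members lowest in knockout replicate 2 was added after seeing the data. Figures were drawn with matplotlib 3.10.9.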

Additional observations from a re-analysis of the deposited data

How the results depend on the processing

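No probe set and no member passed the limma test under any of these alternatives or without any array (lowest adjusted p of a member 0.856, with array weights); at an unadjusted p under 0.05, 0 to 3 members did. The median difference of the members stayed negative, at -0.34 to -0.0568 without single arrays, -0.15 with cyclic loess and -0.15 with probe sets averaged per gene. That average also took in dim probe sets below the filter, of which the members had 9. The numbers 1 and 2 shared by both groups do not stem from a pairing in the labels; with them as a replicate block the median was -0.34, the same as without knockout replicate 3. Members separated without overlap numbered 4 to 20 lower and 0 to 3 higher as single arrays were left out: 20 lower without knockout replicate 3, 16 without control replicate 2 and 11 without control replicate 1. With cyclic loess 16 members were lowest and 3 highest in knockout replicate 2.

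The E2F and RB family median was -0.0303 with probe sets averaged per gene and ran from -0.33 to -0.0077 without single arrays. Other list medians changed sign: mitosis genes ran from -0.38 to 0.0753, other replication genes from -0.30 to 0.0243 and CDK inhibitors from -0.64 to 0.39.

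The sign was kept in every alternative by 16 members, all negative. Leaving out single arrays changed it for the others. Orc1 ran from -0.17 to 0.41, Orc2 from -0.34 to 0.31, Orc6 from -0.22 to 0.25 and Cdc6 from -0.43 to 0.47. Mcm6 ran from -0.40 to 0.0626, Mcm10 from -0.16 to 0.16, Cdc45 from -0.20 to 0.0879, Gins1 from -0.32 to 0.0272 and Gins2 from -0.18 to 0.18. Rfc2 ran from -0.27 to 0.16, Rfc3 from -0.49 to 0.36, Rfc5 from -0.43 to 0.0396, Prim1 from -0.62 to 0.011 and Prim2 from -0.47 to 0.11. Fen1 ran from -0.38 to 0.0552, Rrm2 from -0.70 to 0.45, Tyms from -0.74 to 0.0254, Ccne1 from -0.45 to 0.44 and Ccne2 from -0.31 to 0.0864.

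With array weights the difference was -0.0034 for Orc1, 0.20 for Orc2, 0.16 for Orc6, 0.099 for Mcm10, 0.19 for Gins2, 0.0006 for Rfc3 and 0.0215 for Ccne1. With cyclic loess it was 0.0088 for Orc6, 0.0098 for Mcm10, 0.0045 for Gins2 and 0.0462 for Ccne1. With probe sets averaged per gene it was 0.12 for Orc2 and 0.0179 for Gins2, and with the replicate block -0.14 for Orc1 and -0.12 for Cdc6. The cause was not tested.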
